A study of Mus musculus with 6 samples.

Results

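Cholesterol synthesis was examined through 8 genes of the sterol pathway, Hmgcs1, Idi1, Fdft1, Sqle, Lss, Cyp51, Sc5d and Dhcr7. They were chosen by name and not by their values, though earlier results of these data were known. All 8 were matched by symbol among the 33184 genes of the deposited table. In that order their gene IDs in the table are ENSMUSG00000093930, ENSMUSG00000058258, ENSMUSG00000021273, ENSMUSG00000022351, ENSMUSG00000033105, ENSMUSG00000001467, ENSMUSG00000032018 and ENSMUSG00000058454. All 8 are enzymes of synthesis, and no receptor for the uptake of cholesterol is among them. RNA-seq of whole wound tissues gave the levels of transcripts, as FPKM (fragments scaled to the length of the gene and the size of the library). The samples were 3 libraries labelled NC and 3 labelled SFRP2-siRNA, all from db/db mice, which lack a working leptin receptor and become obese and diabetic. Every animal had a round wound of 6 mm through the epidermis and dermis. A control siRNA (NC) or an siRNA against SFRP2 was injected at the wound edge at dpi1, with dpi for days after injury, and tissues were taken at dpi4. The comparison asks what lowering SFRP2 changes in a diabetic wound. The second group is called siRNA-labelled from here on. The titles carry day 3, without saying from which day it counts. The samples are full-thickness tissue, so a lower share of one cell type and less RNA per cell cannot be told apart. The titles of that group are numbered siRNA-1 to siRNA-3, which are also the names of 3 siRNA sequences in the study's supplement, and whether each library had its own sequence is not stated.

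Cells make cholesterol from acetyl-CoA. The first steps form mevalonate and the isoprenoid building blocks, the middle steps join these into squalene and close the first ring sterol, lanosterol, and the last steps trim lanosterol to cholesterol. The genes are best known as targets of SREBP2, a transcription factor that is held in the endoplasmic reticulum while sterols are plentiful and released when they run low. Its relative SREBP1c mainly drives fatty acid synthesis. In skin, keratinocytes make cholesterol for the barrier lipids of the epidermis, and sebaceous glands use sterols for sebum.

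A short stretch of promoter is shown for 2 of the genes, because the first holds letters that match a sterol regulatory element and the second is the gene with the clearest difference between the groups. RefSeq promoters (build GRCm38.p6) run from 250 bases before a start to 50 after it. The table held 6 of the 8 genes, with Sqle and Fdft1 not among them. Capitals mark matches, on either strand, to TCACNCCAC (a sterol regulatory element), CCAAT (the NF-Y box) and GGGCGG (the Sp1 box). The marked matches do not overlap each other, and matches elsewhere in a window are not shown. The stretch of Hmgcs1, chr13:119690144-119690293 on the plus strand, spans bases -207 to -58 from the start, and that of Sc5d, chr9:42264301-42264450 on the minus strand, spans bases -150 to -1.
Hmgcs1: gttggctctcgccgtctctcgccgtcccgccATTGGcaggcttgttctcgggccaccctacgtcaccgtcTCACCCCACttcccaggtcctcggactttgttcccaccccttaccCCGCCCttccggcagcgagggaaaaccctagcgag
Sc5d: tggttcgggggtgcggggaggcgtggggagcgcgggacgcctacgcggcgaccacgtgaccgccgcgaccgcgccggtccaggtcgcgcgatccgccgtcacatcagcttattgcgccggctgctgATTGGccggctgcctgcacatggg
TCACNCCAC was found in the window of Hmgcs1, 1 of the 6 genes, and in 1.44% of all 27025 genes of the table (1.24% of its 32851 promoters, since some genes have several). CCAAT was found in 6 of the 6 genes and in 41.06% of all genes (37.41% of promoters), and GGGCGG in 6 of the 6 and in 38.2% (35.66%). Among the 9 lipogenesis genes that the table held, 0 had TCACNCCAC, 7 had CCAAT and 4 had GGGCGG. A match of letters is a description of the window and not a site of binding.

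Reads assigned to genes came to 42.9 to 47.1 M per library, as implied by the steps between low FPKM values. Each of the 8 genes rested on at least 1088 reads in every library. The paper reports less SFRP2 protein, by staining, in wounds given the siRNA. The RNA of Sfrp2, the gene targeted by the siRNA, went against the label. It had 11.6, 40.6 and 14.1 FPKM in NC 1, 2 and 3, and 50.6, 54.6 and 55.2 FPKM in siRNA-labelled 1, 2 and 3 (adjusted limma p = 0.518, exact permutation p = 0.1). Directions below are thus stated for the labels and not for a loss of Sfrp2. A pair of libraries stood apart. The library siRNA-labelled 1 had a summed level of 28.1 FPKM over 14 hair follicle markers, against 2875 to 5975 FPKM in the other 5. NC 1 had the largest summed FPKM of all genes, 441746 against 358452 to 374542, which bears on how the libraries are scaled.

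Between the groups, the levels of 7 of the 8 synthesis genes overlapped, and 1, Sc5d, was lower in every siRNA-labelled library than in any NC library. Of 16005 genes tested with limma, 0 were called at an adjusted p under 0.05 and an absolute log2 fold change above 1, which is 0% of the genes tested, and 0 of the 8 synthesis genes were called. An unadjusted p under 0.05 was reached by 1533 genes. Sc5d was the 1 synthesis gene lower in the siRNA-labelled libraries at that level, where 2.86% of all genes were lower, and 0 were higher, where 6.72% of all genes were higher. The median log2 fold change of the 8 genes was -0.0046, with 4 below and 4 above 0. The median over all genes tested was 0.13, so the 8 genes lay 0.13 under it. With median-of-ratios scaling 7 of the 8 were below 0, as Sqle, Cyp51 and Lss crossed it, but the median of all genes also moved, to 0.0046. Without NC 1, 8 of the 8 were below 0, with a median of -0.115 against 0.066 over all genes. The 95% intervals of the 8 log2 fold changes reached from -0.72 to 0.71 at their widest, on the log2(FPKM + 1) scale, and none took in a change of 1 in either direction.

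**Figure D1:**
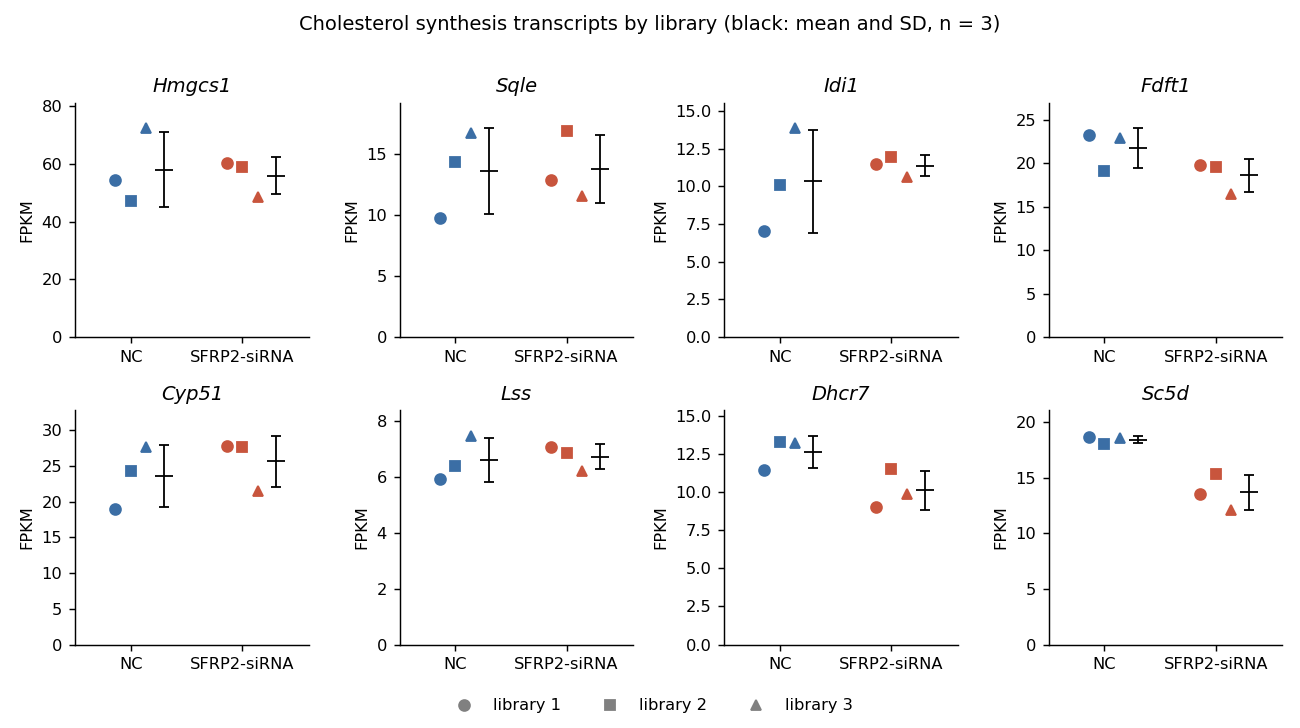
Level of each of the 8 synthesis genes in FPKM (vertical axes, from 0) in the 3 NC libraries (blue) and the 3 siRNA-labelled libraries (red); marker shapes give the library number and black bars the mean and SD (n = 3). The groups overlap in every panel except Sc5d, where NC lies at 18.0 to 18.7 and the other group at 12.1 to 15.3 FPKM.

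The entry to the pathway is described first. Hmgcs1 encodes the cytosolic HMG-CoA synthase, which makes HMG-CoA on the way to mevalonate. It had 54.4, 47.1 and 72.4 FPKM in NC 1, 2 and 3, and 60.3, 58.9 and 48.5 FPKM in siRNA-labelled 1, 2 and 3. NC 3 was the highest library and NC 2 the lowest, so the siRNA-labelled values lay within the NC range. Mean levels were thus near each other, 58.0 ± 13.1 and 55.9 ± 6.42 FPKM (SD, n = 3 each), with a log2 fold change of -0.03 (SE 0.20, 95% interval -0.51 to 0.45). Idi1 encodes the isomerase that makes the reactive isoprenoid unit. It had 7.04, 10.1 and 13.9 FPKM in NC and 11.5, 12.0 and 10.6 FPKM in the siRNA-labelled group. The 3 NC libraries spread widely around the siRNA-labelled ones, with a coefficient of variation of 33.2% in NC and 6.15% in the other group. The log2 fold change was 0.17 (SE 0.23, 95% interval -0.37 to 0.71).

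The enzymes around squalene come next. Fdft1, squalene synthase, takes the first step that leads to sterols alone. Its level was 23.3, 19.1 and 22.9 FPKM in NC and 19.8, 19.6 and 16.5 FPKM in the siRNA-labelled group. Only NC 2 lay within the siRNA-labelled range, with mean levels of 21.7 ± 2.33 and 18.6 ± 1.87 FPKM (SD, n = 3 each). The log2 fold change was -0.21 (SE 0.15, 95% interval -0.56 to 0.13), with an exact permutation p of 0.3. Sqle encodes squalene epoxidase, a rate-limiting oxygen-dependent step. It had 9.78, 14.4 and 16.7 FPKM in NC and 12.9, 16.9 and 11.6 FPKM in the other group, with overlapping groups and a log2 fold change of 0.03 (SE 0.23, 95% interval -0.51 to 0.57). Lss, lanosterol synthase, closes the ring. It had 5.93, 6.39 and 7.47 FPKM in NC and 7.08, 6.85 and 6.22 FPKM in the siRNA-labelled group. This was the steadiest of the 8 genes over the 6 libraries, with a highest value 1.26 times the lowest, and its log2 fold change was 0.03 (SE 0.13, 95% interval -0.28 to 0.33).

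The last 3 genes act on the ring sterols. Cyp51 encodes the lanosterol demethylase, the cytochrome P450 of the pathway. It had 19.0, 24.2 and 27.6 FPKM in NC and 27.8, 27.7 and 21.5 FPKM in the siRNA-labelled group, with overlapping groups and a log2 fold change of 0.12 (SE 0.19, 95% interval -0.32 to 0.57). Dhcr7 encodes the reductase that turns the provitamin D sterol into cholesterol. It had 11.5, 13.3 and 13.2 FPKM in NC and 9.01, 11.5 and 9.89 FPKM in the other group. NC 1 and the library siRNA-labelled 2 met at 11.5 FPKM, and the other siRNA-labelled libraries lay below all of NC. The log2 fold change was -0.30 (SE 0.14, 95% interval -0.63 to 0.03), with an unadjusted limma p of 0.0702 and an exact permutation p of 0.2.

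Sc5d differed most of the 8. It encodes lathosterol oxidase, the desaturase that makes the substrate of Dhcr7. Its level was 18.7, 18.0 and 18.6 FPKM in NC and 13.6, 15.3 and 12.1 FPKM in the siRNA-labelled group. The NC libraries were nearly equal, with a coefficient of variation of 1.94%, and every siRNA-labelled library lay below them. Of the 8 genes, 1 (Sc5d) was lower with no overlap between the groups, against 3.92% of all genes tested, and 0 were higher with no overlap, against 13.9%. Averaged, this was 18.4 ± 0.36 against 13.7 ± 1.6 FPKM (SD, n = 3 each), a ratio of 0.742. The log2 fold change was -0.41 (SE 0.13, 95% interval -0.72 to -0.10). The limma p was 0.0172 before adjustment and 0.518 after it, so the difference did not pass. By exact permutation the p was 0.1, and groups of 3 can give none smaller. Without NC 1 the log2 fold change of Sc5d was -0.40 and that of Dhcr7 -0.365. Without the library siRNA-labelled 1 they were -0.41 and -0.22. Without siRNA-labelled 3 that of Sc5d was -0.33, where its limma p before adjustment was 0.0758.

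Since a difference between libraries in scaling touches every gene, the 8 genes were also compared with each other inside each library. The share of Sc5d in their summed FPKM was 12.5%, 11.8% and 9.65% in NC 1, 2 and 3, and 8.37%, 9.08% and 8.86% in the siRNA-labelled libraries. These shares did not overlap between the groups, and those of the other 7 genes did. The share of Dhcr7 was 7.66%, 8.74% and 6.87% in NC and 5.56%, 6.83% and 7.22% in the other group. Shares of one sum are tied to each other, and they were not tested.

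Levels of the 8 genes can be set side by side because FPKM is per length. Hmgcs1 was the highest, with a mean of 56.9 FPKM over the 6 libraries, and its range did not reach that of any other gene. Cyp51 (24.6), Fdft1 (20.2), Sc5d (16.0), Sqle (13.7), Dhcr7 (11.4), Idi1 (10.9) and Lss (6.65 FPKM) followed. Neighbours in this order overlapped over the libraries from Cyp51 downwards. Within single libraries the higher neighbour was above the lower one in 5 of 6 for Cyp51 over Fdft1, 6 of 6 for Fdft1 over Sc5d, and 5 of 6 each for Sc5d over Sqle and Sqle over Dhcr7. Dhcr7 was above Idi1 in 2 of 6, so their order was not fixed, and Idi1 was above Lss in 6 of 6. The lengths behind these levels join all exons of a gene, from 3505 bases for Idi1 to 10787 for Lss, so a gene with long minor transcripts is listed lower.

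The level of the pathway varied between libraries of the same group. On the log2(FPKM + 1) scale the mean deviation of the 8 genes was -0.13, 0.0039 and 0.24 in NC 1, 2 and 3, and -0.02, 0.09 and -0.185 in the siRNA-labelled libraries. NC 3 was thus highest and the library siRNA-labelled 3 lowest. The summed level was 149.5, 152.6 and 192.9 FPKM in NC and 161.9, 168.8 and 136.9 FPKM in the other group. The 12 keratinocyte markers had summed levels of 4060, 4976 and 6847 FPKM in NC and 7047, 5943 and 3740 FPKM in siRNA-labelled 1, 2 and 3, with 0 markers at 0 in any library. By these sums their lowest library was the same as for the synthesis genes, and their highest was siRNA-labelled 1. On the log2(FPKM + 1) scale the marker means were 6.65, 6.82 and 7.36 in NC and 6.69, 7.08 and 6.53 in siRNA-labelled 1, 2 and 3. On that scale the 6 libraries ranked in the same order for the markers and the synthesis genes, with NC 3 highest and siRNA-labelled 3 lowest. The part of keratinocyte content in the levels of the synthesis genes was not tested. Outside the sterol lists, the genes with the nearest profile over the 6 libraries included Pla2g5, Cltb, Gm6104 and Laptm4b. Of these, Pla2g5 rested on 43 to 89 reads and Gm6104 on 28 to 51, so both were low, where the added 1 compresses differences. The root mean square difference of the listed genes from the mean profile of the 8 genes was 0.0487 to 0.0538 on the log2 scale. Of the 8 genes themselves, Lss was nearest to that profile (0.0747) and Sc5d farthest from it (0.20).

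The rest of the pathway was listed as 10 further synthesis enzymes. Of these, 0 passed the adjusted threshold, 0 had an unadjusted limma p under 0.05 in either direction, and the groups overlapped in all 10. Their median log2 fold change was 0.11, with 4 negative and 6 positive. The 3 with the smallest p were Acat2, Pmvk and Ebp. Acat2, which makes acetoacetyl-CoA for Hmgcs1, had 24.0, 24.6 and 23.8 FPKM in NC and 24.6, 17.2 and 16.7 FPKM in the siRNA-labelled group, with libraries 2 and 3 of that group below the rest and a log2 fold change of -0.315 (SE 0.17). Pmvk, a mevalonate pathway kinase, averaged 37.6 ± 5.78 FPKM in NC and 29.8 ± 4.48 FPKM in the other group (SD, n = 3 each), with a log2 fold change of -0.33 (SE 0.18). Ebp, a sterol isomerase late in the pathway, averaged 18.7 ± 1.23 and 22.1 ± 3.66 FPKM, and its log2 fold change was 0.22 (SE 0.15). Without siRNA-labelled 1 that of Ebp was 0.0949, and without siRNA-labelled 3 that of Pmvk was -0.21.

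**Figure D2:**
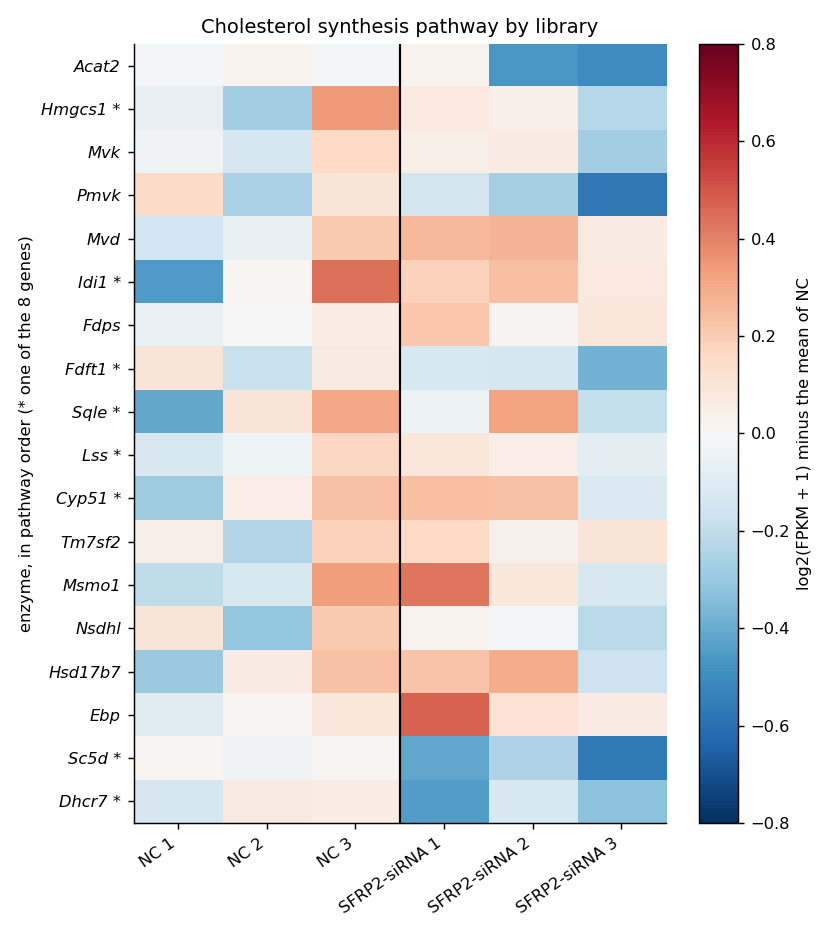
The 8 genes and 10 further cholesterol synthesis enzymes from early (top) to late steps (bottom), with the 8 genes starred; colour gives log2(FPKM + 1) in each library minus the mean of the NC libraries. Sc5d, Dhcr7, Fdft1 and Pmvk are blue in all 3 libraries labelled SFRP2-siRNA, while Cyp51, Lss, Sqle and Hmgcs1 show both colours in each group.

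Copies of some genes limit these values. GENCODE vM21 transcripts were searched for matches of at least 300 bases at 95% identity to other genes. Of the 8 genes, Cyp51, Dhcr7, Lss, Sc5d and Sqle had 0 such matches. Matches covered 54.7% of the transcript of Fdft1, 33.3% of Idi1 and 13.3% of Hmgcs1, so reads there may be split or lost. Fdps, farnesyl diphosphate synthase, matched 5 other genes over 91.4% of its transcript and was listed at 0.80 to 1.18 FPKM, the lowest of all these enzymes, so its level is uncertain. Acat2 was covered over 65.6%, with Acat3 the longest match.

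The sensors and regulators of the pathway were compared as 12 genes. Their median log2 fold change was 0.11, 0 passed the adjusted threshold, 1 was lower and 1 higher at an unadjusted limma p under 0.05. Of all genes tested, 2.86% were lower and 6.72% higher at that level, and 3.92% were lower and 13.9% higher with no overlap. Srebf2, the gene of SREBP2, had 18.2, 18.2 and 20.7 FPKM in NC and 15.2, 21.0 and 19.4 FPKM in the siRNA-labelled group. The NC values lay inside the siRNA-labelled range, with a log2 fold change of -0.05 (SE 0.16, 95% interval -0.42 to 0.33). Srebf1, which encodes SREBP1a and SREBP1c, had 32.6, 40.0 and 33.4 FPKM in NC and 29.8, 26.0 and 26.3 FPKM in the other group. These groups did not overlap, and the log2 fold change was -0.35 (SE 0.14), with an adjusted limma p of 0.518 and an exact permutation p of 0.1. Insig1, a sterol sensor that is itself induced by SREBP, averaged 31.8 ± 1.95 and 27.7 ± 4.31 FPKM (SD, n = 3 each), with a log2 fold change of -0.21 (SE 0.16). Rnf139, a ubiquitin ligase of the endoplasmic reticulum, averaged 3.95 ± 0.67 and 5.27 ± 0.44 FPKM, with no overlap, a log2 fold change of 0.35 (SE 0.14) and an adjusted limma p of 0.518. Erlin1, a membrane protein of the same compartment, had a log2 fold change of 0.29 (SE 0.18), or 0.11 without NC 1.

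Handling of cholesterol after synthesis was described by 3 more lists, and in each 0 genes passed the adjusted threshold. Of 10 genes for lipoprotein uptake and lysosomal release, 0 had an unadjusted limma p under 0.05, 8 were above 0, and the median log2 fold change was 0.14. Lrp1, a large endocytic receptor, had 19.0, 42.7 and 25.4 FPKM in NC and 53.1, 37.2 and 34.3 FPKM in the siRNA-labelled group, a log2 fold change of 0.56 (SE 0.32). Leaving out NC 1 gave 0.30 for Lrp1 and leaving out NC 2 gave 0.86. Lrp8, a receptor of the same family, averaged 0.71 ± 0.18 FPKM in NC and 1.04 ± 0.081 FPKM in the other group (SD, n = 3 each). At such low levels the added 1 compresses the change, and its log2 fold change was 0.26 (SE 0.12) but 0.52 with 0.1 added in place of 1. Npc1, which exports cholesterol from lysosomes, had a log2 fold change of 0.23 (SE 0.17), or 0.0697 without NC 1. Of 13 genes for efflux, oxysterols and esterification, 2 were higher at an unadjusted limma p under 0.05 and 0 lower, with a median log2 fold change of 0.25. Of all genes tested, 6.72% were higher at that level and 13.9% were higher with no overlap. Nceh1, a cholesteryl ester hydrolase of macrophages, had 3.09, 5.43 and 3.76 FPKM in NC and 7.45, 6.02 and 5.48 FPKM in the other group, with no overlap and a log2 fold change of 0.54 (SE 0.20). Soat2, which esterifies cholesterol, had 1.2, 2.22 and 0.59 FPKM in NC and 4.96, 4.07 and 1.66 FPKM in the siRNA-labelled group, a log2 fold change of 0.94 (SE 0.37). Soat1, the enzyme of most tissues, had a log2 fold change of 0.43 (SE 0.20), or 0.24 without siRNA-labelled 1. With 0.1 added in place of 1, Soat2 was at 1.39. The 12 macrophage markers, led by Lyz2 and C1qb, differed in the same direction, with summed levels of 1109 to 1769 FPKM in NC and 1976 to 2633 FPKM in the siRNA-labelled group and 0 markers at 0, and their part in the values was not tested. Of 10 genes of the isoprenoid branch, which leads to ubiquinone, dolichol and prenylated proteins, 0 had an unadjusted limma p under 0.05 and the groups overlapped in all 10. Nus1, Dhdds and Fnta had the smallest p, with log2 fold changes of 0.29, 0.17 and 0.14. Without siRNA-labelled 1 that of Nus1 was 0.11, and without NC 1 those of Dhdds and Fnta were 0.11 and 0.0917.

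Fatty acid synthesis shares acetyl-CoA and the SREBP family with cholesterol synthesis, so 11 de novo lipogenesis enzymes were set beside the 8 genes. Of all genes tested, 2.86% were lower at an unadjusted limma p under 0.05 and 3.92% were lower with no overlap. Of the 11, 0 passed the adjusted threshold, 9 were lower at an unadjusted limma p under 0.05, and the same number had groups that did not overlap in that direction. Their median log2 fold change was -1.36, against -0.0046 for the 8 synthesis genes. Acly, which makes the cytosolic acetyl-CoA that both pathways use, had 271.7, 297.7 and 170.0 FPKM in NC and 81.2, 61.2 and 69.2 FPKM in the siRNA-labelled group, a log2 fold change of -1.76 (SE 0.26). Acss2, which makes acetyl-CoA from acetate, had 15.5, 16.1 and 10.4 FPKM and 5.79, 4.10 and 4.22 FPKM, with a log2 fold change of -1.38 (SE 0.21). Me1, which supplies NADPH, had a log2 fold change of -1.36 (SE 0.18). All 3 had an adjusted limma p of 0.518. Elovl5 and Elovl6, fatty acid elongases, were the 2 of the 11 whose groups overlapped, with log2 fold changes of 0.17 (SE 0.14) and -0.15 (SE 0.26).

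**Figure D3:**
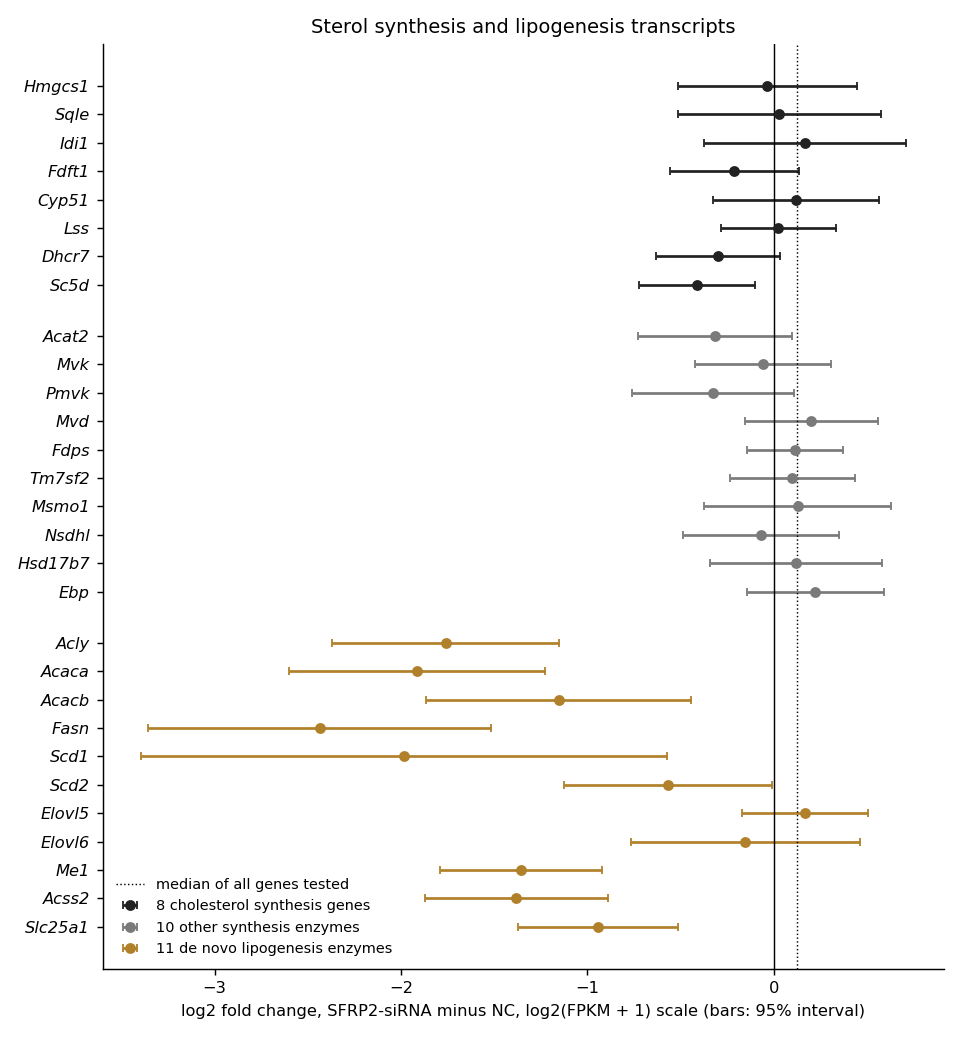
Log2 fold change (SFRP2-siRNA minus NC, log2(FPKM + 1) scale) of the 8 synthesis genes (black), 10 other synthesis enzymes (grey) and 11 de novo lipogenesis enzymes (gold), with 95% intervals from limma; the dotted line is the median of all genes tested. The black and grey points lie between -0.41 and 0.22, while the intervals of 9 of the 11 gold points lie wholly below 0.

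The contrast was also read within each library, where scaling cancels. The summed FPKM of the 8 synthesis genes was 1.82%, 2.54% and 4.95% of that of the lipogenesis enzymes in NC 1, 2 and 3. It was 5.32%, 12.1% and 13.2% in siRNA-labelled 1, 2 and 3. Scd1 made up most of the lipogenesis sum, and without it the values were 10.7%, 11.3% and 21.1% in NC and 29.1%, 43.6% and 31.8% in the other group. The groups did not overlap in either form, and the difference between the lists was not tested.

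Markers of lipid-making cells were measured in the same libraries. The 12 adipocyte markers had summed levels of 2105 to 2781 FPKM in NC and 1065 to 2841 FPKM in the siRNA-labelled group, with 0 markers at 0. Fabp4, a fatty acid carrier of fat cells, and Pnpla2, a fat lipase, were the most abundant. The 12 sebaceous gland markers had 504 to 760 FPKM and 274 to 495 FPKM, also with 0 at 0, and Cidea and Mgst1 were the most abundant. Cidea is also made by brown fat cells and had 481.6, 311.2 and 180.0 FPKM in NC and 132.2, 50.7 and 37.3 FPKM in the other group. The median log2 fold change was -0.44 for the adipocyte markers and 0.14 for the sebaceous markers. Cidea was the largest part of the sebaceous sum in each NC library. On the log2(FPKM + 1) scale the means of the sebaceous markers overlapped between the groups. These were 4.01, 4.09 and 4.24 in NC and 4.34, 3.80 and 3.68 in siRNA-labelled 1, 2 and 3, and 8 of the 12 log2 fold changes were above 0. By library the adipocyte sums were 2781, 2105 and 2354 FPKM in NC and 2841, 1518 and 1065 FPKM in siRNA-labelled 1, 2 and 3. The lipogenesis sums were 8232, 6015 and 3893 FPKM in NC and 3044, 1396 and 1038 FPKM in the siRNA-labelled libraries. The part of these cells in the values of either pathway was not tested. Endothelial markers, among them Pecam1 and Cdh5, had a median log2 fold change of 0.0064, fibroblast markers, led by Col1a1 and Col3a1, of 0.74, and skeletal muscle markers, led by Acta1 and Mylpf, of 0.635. Keratinocyte markers, led by Krt14 and Krt5, had a median of -0.12. The hair follicle markers, led by Krt71 and Krt25, had a median of -1.62 that rests on the library siRNA-labelled 1: without it, Krt71 was at 0.29 and Krt25 at 0.45.

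**Figure D4:**
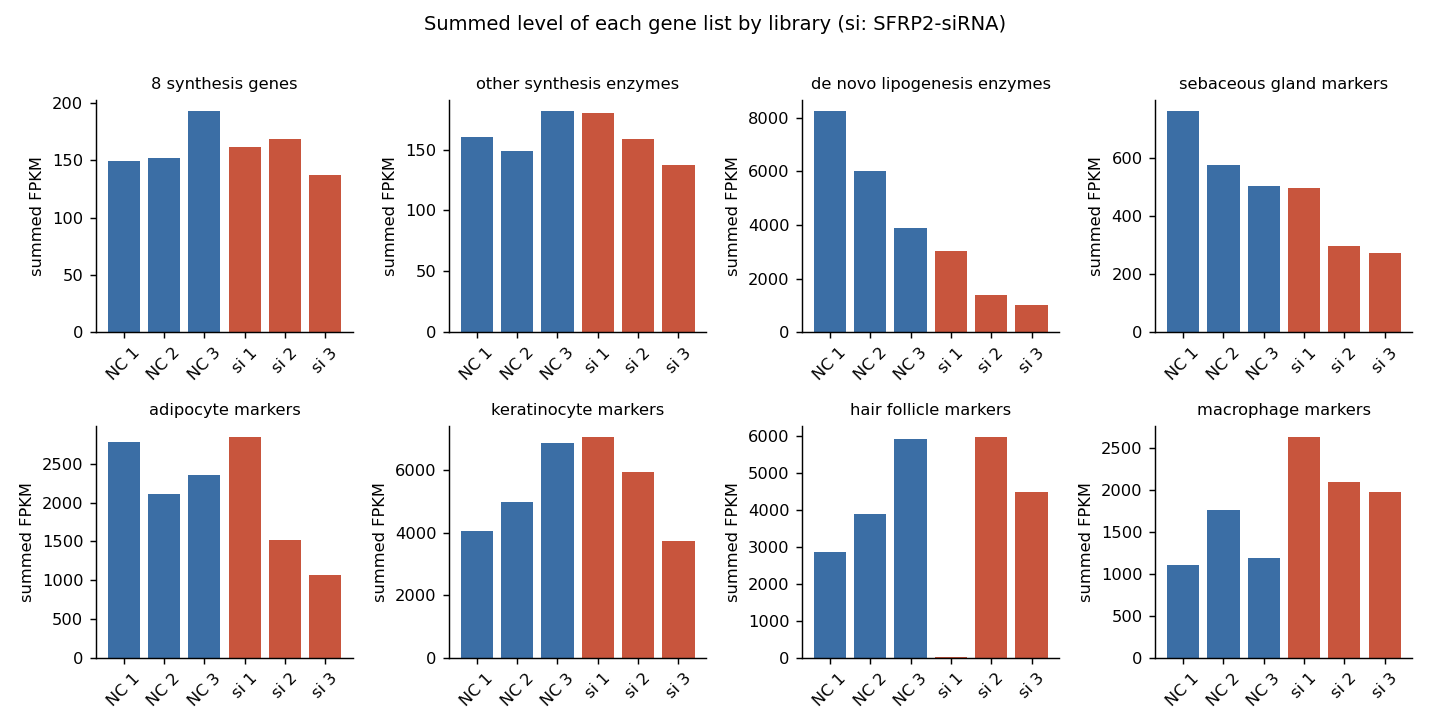
Summed FPKM of each gene list (vertical axes, from 0) in the NC libraries (blue) and the siRNA-labelled libraries (red, si). The sums of the 8 synthesis genes lie between 136.9 and 192.9 FPKM with overlapping groups, the lipogenesis sums run from 8232 FPKM in NC 1 to 1038 FPKM in SFRP2-siRNA 3, and the hair follicle sum is near 0 in SFRP2-siRNA 1.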

How the data were processed

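The values are FPKM, computed by the authors from paired-end reads of mRNA and deposited as a single table. HISAT2, featureCounts and Subread are named in the submitters' processing notes. Their versions, the genome build and the annotation are not given in the sources used here. The study's own test needs counts, so limma 3.58.1 in R 4.3.3 took its place. Values were analysed as log2(FPKM + 1), for 16005 of 33184 genes, those averaging 0.5 FPKM or more over the 6 libraries, and fold changes on that scale understate low genes. The fit (lmFit, eBayes with an intensity trend) was two-sided, with Benjamini-Hochberg adjustment over all genes kept. All 8 synthesis genes passed the filter. For single genes an exact permutation test over libraries, two-sided, was added. Groups came from the sample titles. Nothing says that libraries came from separate animals, so p-values measure the spread between libraries, which may be technical.

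Read totals were taken from the steps between low values with exon lengths of GENCODE vM21, which gave whole reads within 0.05 for 98.6% to 98.8% of values under 200 reads. The mates of a pair appear to have been counted singly, since 63.2% to 65.3% of values from 1 to 20 reads were even. Symbols matched 32582 gene IDs. Matches between transcripts were found with blastn 2.17.0. The test was checked on simulated data.

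The 8 genes, the lists and the tests were chosen with earlier results of these data known. Named were the 8 genes, Sfrp2, the 3 genes with the smallest p in each sterol or lipogenesis list, the 2 most abundant of each marker list, and the 5 nearest profiles. Some genes that these rules take in are not reported here. Srebf2, Insig1, Fdps, Elovl5, Elovl6 and Scd1 were named after their values were seen. Alternatives were a pseudocount of 0.1, no filter or one at 2 FPKM, 3 scalings, no trend, a replicate block, sample weights and leaving out each library. Limma voom on the recovered reads was added after seeing the data.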

Additional observations from a re-analysis of the deposited data

How the results depend on the processing

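With limma, 0 genes were called in every alternative, also with voom. Medians of the 8 genes ran from -0.154 to 0.083 over the 10 alternatives that kept all libraries. Each moved by less than the spread between replicates (SD 0.165). Minus the median of all genes, theirs was -0.23 to -0.03 over all fits, leaving out a library included. That median of all genes moved from 0.13 to 0.20 under equal sums and to 0.0046 under median-of-ratios scaling. Sc5d and Dhcr7 kept their direction in all fits, at -0.56 to -0.30 and -0.445 to -0.21. The count of synthesis genes lower at an unadjusted p under 0.05 was 0 under equal sums, and 2 (Sc5d and Dhcr7) with median-of-ratios scaling, quantile normalization or the replicate block, where 1.92%, 4.67%, 4.27% and 4.21% of all genes were lower. It was 0 to 2 when 1 library was left out, with 0 without SFRP2-siRNA 3 and 2 without NC 1. In these 2 fits 1.89% and 2.67% of all genes were lower at that level. The count with no overlap was 3 (also Dhcr7 and Fdft1) with median-of-ratios scaling and with quantile normalization, where the share of all genes was 7.67% and 6.42%, against 3.92% as deposited, and 1 to 2 when 1 library was left out, with 2 without NC 1, NC 2 or SFRP2-siRNA 2, where it was 7.34%, 6.83% and 5.52%. The cause was not tested.

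Whether same-numbered libraries form pairs is not stated. Their deviations were correlated at -0.05, -0.15 and 0.38, and 3 such values cannot decide it. Beside the count above, the block moved the genes of the whole table at an unadjusted p under 0.05 from 1533 to 1929. It moved the smallest adjusted limma p from 0.518 to 0.193. Groups that do not overlap were counted without a fit, so the block does not bear on them.

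Of 749 fits of 47 named genes, 713 kept their direction and 36 reversed. As 0 genes were called in any fit, a reversal could fall only in a gene that was not called. With median-of-ratios scaling, Sqle was -0.12, Cyp51 -0.0312, Lss -0.11, Fnta -0.0092, Krt5 -0.0525 and Pecam1 -0.0152. Quantile normalization gave Sqle -0.0933 and Lss -0.0944. Rescaling to equal sums gave Hmgcs1 0.059, Mgst1 0.0056 and Cdh5 0.0028. Sample weights gave Hmgcs1 0.0198, Krt5 -0.17, Pecam1 -0.0101 and Gm6104 0.0145. When 1 library was left out, ranges that crossed 0 were -0.17 to 0.14 for Hmgcs1, -0.175 to 0.18 for Sqle, -0.0571 to 0.39 for Idi1, -0.0216 to 0.24 for Cyp51 and -0.0384 to 0.11 for Lss. They were -0.14 to 0.36 for Krt5, -0.0302 to 0.61 for Krt14, -3.39 to 0.45 for Krt25, -3.61 to 0.29 for Krt71, -0.11 to 0.31 for Pecam1, -0.29 to 0.068 for Cdh5, -0.29 to 0.0312 for Mgst1, -0.15 to 0.0161 for Cltb and -0.19 to 0.0368 for Gm6104.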
